A study of Homo sapiens with 12 samples.

Results

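The MHC class I antigen presentation genes were followed in WI-38 cells, a line of normal human lung fibroblasts, cultured with or without TGF-β. The group held 9 genes chosen by name: the heavy chain genes HLA-B, HLA-C, HLA-E and HLA-F, the light chain gene B2M, the peptide transporter genes TAP1 and TAP2, the loading factor gene TAPBP and the regulator gene NLRC5. Of these, 8 were found by symbol among the 9412 genes of the deposited annotated table. HLA-F was found by its Entrez identifier in the count table, which lists 25702 genes. All 8 genes other than HLA-F passed the filter on low values and were among the 9490 genes tested.

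MHC class I molecules display peptides from inside the cell to CD8 T cells and to natural killer cells. Proteasomes cut proteins into peptides, the TAP1 and TAP2 transporter carries the peptides into the endoplasmic reticulum, and TAPBP (tapasin) bridges the transporter to a heavy chain paired with β2-microglobulin, the product of B2M, until a peptide is bound. NLRC5 is a transactivator of these genes, and interferons raise their transcription in most nucleated cells, fibroblasts included.

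There were 4 conditions of 3 flasks each, untreated (D1 and D20) and treated (D1+ TGF-β and D20+ TGF-β), harvested 1 or 20 days after the treated flasks first received TGF-β, with untreated flasks having only a change of medium. The cells were at passages 2 to 3 on day 1 and at passages 5 to 6 on day 20, so day and passage cannot be told apart. The D20 flasks of each treatment were all seeded from a single treated or a single untreated flask of day 1. P-values here therefore measure the spread between flasks of one line, and on day 20 between flasks of a single parent flask per treatment. In D20+ TGF-β vs D20, treatment and parent flask cannot be told apart. The flasks sequenced had been selected for RNA quantity and quality.

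Library totals ranged from 8674488 to 18286197 counts. Of the fibroblast markers, 10 of 10 passed the filter, and of 10 leukocyte and 5 endothelial markers none did. The smooth muscle actin gene ACTA2, a marker of the myofibroblast, was called higher at D1+ TGF-β than at D1 (log2 fold change 2.07, edgeR adjusted p = 2.28e-06). At D20+ TGF-β its 3 flasks were at 280.5, 297 and 351 cpm (reads of a gene, scaled to the same library total), beside 272, 283 and 292 cpm at D20, and it was not called there (log2 fold change 0.13, edgeR adjusted p = 0.554). This marker thus does not separate the libraries labelled D20+ TGF-β from those of D20 past the threshold. Of the 10 fibroblast markers, the collagen gene COL1A1 was called higher there (log2 fold change 0.99, edgeR adjusted p = 2.39e-05). The 3 called lower were THY1 (−1.20, edgeR adjusted p = 1.33e-07), DCN (−0.98, edgeR adjusted p = 0.000193) and PDGFRA (−0.53, edgeR adjusted p = 0.00294). Of all genes tested, 12.8% were called higher and 14.7% lower in that comparison. Between flasks of one condition, the chi-square of the counts per degree of freedom was 36.1 and 33.8 for the pairs with D1 replicate 2, beside 12.9 for the other pair, and 26.5 and 19.1 for the pairs with D20+ TGF-β replicate 3, beside 5.28. In the D1+ TGF-β and D20 conditions it lay between 1.78 and 4.49. Without D1 replicate 2 the class I genes called numbered 1 in D1+ TGF-β vs D1, 7 in D20+ TGF-β vs D20 and 7 in D20 vs D1, and without D20+ TGF-β replicate 3 they numbered 1, 6 and 6, instead of 1, 7 and 6.

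The proximal promoters of 7 of the 9 genes were found in the RefSeq table of GRCh38.p14, and those of HLA-E and NLRC5 are named only. They are shown because most of these genes moved together and because class I promoters are known for a shared set of elements. The 200 bases before the annotated start are printed 5′ to 3′ on the gene's strand, with motif matches in capitals. The motifs were an interferon regulatory factor (IRF) motif, AANNGAAA, a CCAAT box, ATTGG, the half-site TGACG of a cyclic AMP response element (CRE), and a κB motif, each searched on both strands. Their spelling was chosen after the sequences had been read. The first 3 sequences are from HLA-B (chr6:31357180-31357379, minus strand), HLA-C (chr6:31272093-31272292, minus strand) and B2M (chr15:44711317-44711516, plus strand), whose windows hold all 4 motifs.
HLA-B: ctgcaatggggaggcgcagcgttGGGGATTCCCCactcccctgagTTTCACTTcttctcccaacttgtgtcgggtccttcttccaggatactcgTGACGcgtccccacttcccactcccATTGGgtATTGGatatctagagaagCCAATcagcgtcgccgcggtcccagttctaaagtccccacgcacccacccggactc
HLA-C: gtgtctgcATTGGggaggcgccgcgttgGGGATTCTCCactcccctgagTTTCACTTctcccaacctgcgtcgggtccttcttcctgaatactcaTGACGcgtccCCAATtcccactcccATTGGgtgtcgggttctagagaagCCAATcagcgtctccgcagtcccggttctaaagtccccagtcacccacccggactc
B2M: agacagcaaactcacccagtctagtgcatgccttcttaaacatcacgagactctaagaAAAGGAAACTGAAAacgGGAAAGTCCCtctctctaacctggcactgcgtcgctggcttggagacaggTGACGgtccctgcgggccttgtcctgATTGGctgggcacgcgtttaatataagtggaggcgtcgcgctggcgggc
The other 3 are from TAP1 (chr6:32853705-32853904, minus strand), TAP2 (chr6:32838740-32838939, minus strand) and TAPBP (chr6:33314079-33314278, minus strand). In these, as in B2M above, pairs of IRF motifs overlap by a pair of bases.
TAP1: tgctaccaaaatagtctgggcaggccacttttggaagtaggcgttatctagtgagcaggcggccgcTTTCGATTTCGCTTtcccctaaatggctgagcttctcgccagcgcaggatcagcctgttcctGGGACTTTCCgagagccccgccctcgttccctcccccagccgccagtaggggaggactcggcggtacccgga
TAP2: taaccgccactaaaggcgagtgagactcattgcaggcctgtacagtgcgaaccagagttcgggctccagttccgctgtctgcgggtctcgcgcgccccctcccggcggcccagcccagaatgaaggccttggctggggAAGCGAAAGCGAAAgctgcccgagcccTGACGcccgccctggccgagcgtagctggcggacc
TAPBP: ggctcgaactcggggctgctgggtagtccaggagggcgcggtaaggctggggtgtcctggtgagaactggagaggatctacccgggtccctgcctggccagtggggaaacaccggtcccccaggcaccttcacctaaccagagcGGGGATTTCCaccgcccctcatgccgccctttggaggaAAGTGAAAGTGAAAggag

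Over the 250 bases before the start, the IRF motif was present in all 7 genes. The share of all 35116 RefSeq windows of that length that hold it was 20.3%, which is no test of enrichment, since the spelling was chosen on these sequences and the heavy chain promoters resemble each other. It is the one motif of the 4 that TAP1, TAP2, TAPBP, B2M, HLA-B, HLA-C and HLA-F had in common. A CCAAT box was found in 32% of all windows, a CRE half-site in 21.2% and a κB motif in 3.67%. All 4 motifs together were found in 10 windows, 0.0285% of them, which include those of HLA-B, HLA-C and B2M. HLA-F had an IRF motif and CCAAT boxes but neither of the other motifs. The 3 κB matches of HLA-B overlap each other, and a second RefSeq start of TAP1 had no match. A match is a run of letters and was not tested for binding.

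**Figure D1:**
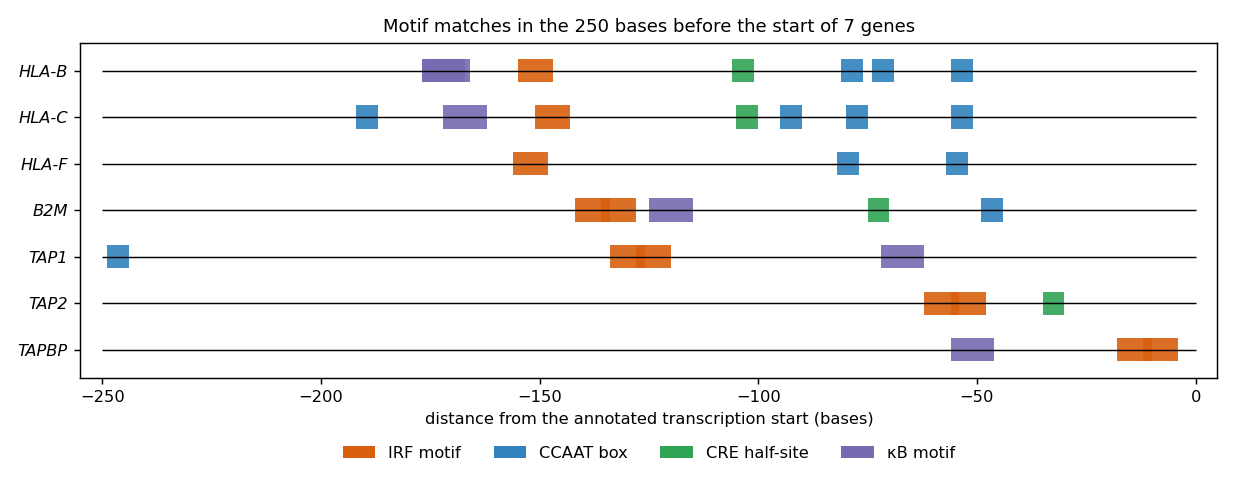
Motif matches in the 250 bases before the RefSeq start of 7 class I pathway genes, as distance from the start in bases. Each line is one gene and each coloured bar one match. The IRF motif is in all 7 windows, and HLA-B, HLA-C and B2M hold all 4 motifs.

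Levels are given as cpm after scaling for library composition, and, to compare genes, as cpm per kilobase of the canonical transcript. Per kilobase the order at D20 was B2M (1596 ± 69.2, SD, n = 3), HLA-C (373 ± 19.7), HLA-E (140.4 ± 7.11), HLA-B (105.8 ± 7.77), TAPBP (68.9 ± 4.22), TAP1 (23.0 ± 2.86), TAP2 (12.1 ± 0.750), NLRC5 (3.23 ± 0.281) and HLA-F (0.112 ± 0.152). At D20 and at D20+ TGF-β the flasks of neighbours in this order did not overlap. The order was the same at D1, where the flasks of HLA-B (59.4 ± 10.4 cpm per kilobase) and TAPBP (47.1 ± 11.1) overlapped. At D1+ TGF-β HLA-B (57.8 ± 2.35 cpm per kilobase) and HLA-E (56.4 ± 0.560) changed places with overlapping flasks.

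HLA-B (Entrez 3106; GRCh37, chromosome 6 from 31321649 to 31334844, minus strand) encodes one of the highly polymorphic heavy chains that present peptides to CD8 T cells. Its level was 109, 77.0 and 88.3 cpm in the D1 flasks and 84.7, 90.1 and 91.5 cpm in the D1+ TGF-β flasks. At D20 it was 149, 167 and 171 cpm, and at D20+ TGF-β 103, 95.4 and 79.9 cpm. The 3 D20 flasks stood above all 9 others, which overlapped.

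HLA-C (Entrez 3107; chromosome 6 from 31236526 to 31239907, minus strand), the heavy chain read by many killer cell receptors, was the most abundant heavy chain transcript of the 4. Its level was 471, 379 and 418 cpm at D1 and 345, 363 and 373 cpm at D1+ TGF-β. At D20 it was 540, 591 and 594 cpm, and at D20+ TGF-β 397, 391 and 350 cpm. Again the D20 flasks were the highest, and those of D1+ TGF-β lay below those of D1.

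HLA-E (Entrez 3133; chromosome 6 from 30457286 to 30461971, plus strand) encodes a less variable heavy chain that presents leader peptides of other class I chains to the CD94/NKG2A receptor of natural killer cells. Its level was 224, 187 and 193 cpm at D1 and 142.9, 142.8 and 145 cpm at D1+ TGF-β. At D20 it was 337, 371 and 365 cpm, and at D20+ TGF-β 212, 215 and 195 cpm. The treated flasks were below the untreated ones on both days.

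HLA-F (Entrez 3134; chromosome 6 from 29690552 to 29706305, plus strand), another non-classical heavy chain, was barely detected. On day 1 it had 5, 3 and 1 counts in the untreated flasks and 1, 0 and 0 in the treated ones. On day 20 the untreated flasks had 0, 1 and 7 counts and the treated ones 3, 0 and 0. A count of 0 allows up to 3 counts, which is 0.167 to 0.349 cpm by library, and this limit covers counting error only. No fold change is given, since the levels were at or near this floor in every condition.

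B2M (Entrez 567; chromosome 15 from 45003556 to 45011049, plus strand), the shared light chain without which the heavy chains do not reach the surface, was the most abundant member. Its level was 1075, 986 and 1141 cpm at D1 and 939, 994 and 945 cpm at D1+ TGF-β. At D20 it was 1430.2, 1551 and 1534 cpm, and at D20+ TGF-β 1109, 1075 and 962 cpm. The D20 flasks stood above the other 9, among which those of D1 and D1+ TGF-β overlapped.

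TAP1 (Entrez 6890; chromosome 6 from 32812986 to 32821593, minus strand) and TAP2 (Entrez 6891; chromosome 6 from 32789610 to 32806516, minus strand) encode the chains of the peptide transporter. On day 1, TAP1 was at 45.4, 39.4 and 34.5 cpm in untreated and at 27.4, 29.7 and 33.0 cpm in treated flasks, and on day 20 at 53.7, 68.9 and 62.9 cpm and at 37.8, 40.4 and 32.3 cpm. TAP2 was at 51.4, 64.6 and 48.4 cpm in untreated and at 44.9, 40.2 and 47.4 cpm in treated flasks on day 1, and at 67.0, 64.4 and 72.6 cpm and at 34.3, 32.5 and 37.1 cpm on day 20. TAP1 was highest at D20 without overlap, whereas the D20 and D1 flasks of TAP2 overlapped and its lowest flasks were all of D20+ TGF-β. The log2 ratio of TAP1 to TAP2 counts was −0.46 ± 0.27 untreated and −0.56 ± 0.14 treated on day 1, and −0.14 ± 0.22 untreated and 0.09 ± 0.26 treated on day 20 (SD, n = 3), and the flasks of the 2 conditions of each day overlapped.

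TAPBP (Entrez 6892; chromosome 6 from 33267471 to 33282061, minus strand), which encodes tapasin, was at 182, 187 and 118 cpm at D1 and 131, 127 and 142 cpm at D1+ TGF-β. At D20 it was at 221, 247 and 245 cpm, and at D20+ TGF-β at 169, 160.4 and 139 cpm. D1 replicate 3 lay below every D1+ TGF-β flask for this gene, while the other 2 D1 flasks lay above them. NLRC5 (Entrez 84166; chromosome 16 from 57023397 to 57117443, plus strand) was at 20.7, 17.0 and 16.4 cpm in untreated and at 18.2, 18.6 and 16.4 cpm in treated flasks on day 1, and at 24.1, 21.0 and 20.7 cpm and at 18.1, 17.6 and 17.5 cpm on day 20. Its D20 flasks were again the highest, but by a near tie, 20.688 cpm in D20 replicate 3 beside 20.685 cpm in D1 replicate 1.

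Reads of heavy chain genes can match more than one of them, and the alleles of the line can differ from the reference, so the split between HLA-B, HLA-C, HLA-E and HLA-F is uncertain. TAP1 is overlapped in its exons on the opposite strand by PSMB9 and PSMB8-AS1, and HLA-F by HLA-F-AS1. HLA-B, TAP2, TAPBP and NLRC5 also share exonic bases with unnamed annotated genes. The libraries were directional, but whether strand was used in the counting is not given in the sources used here.

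**Figure D2:**
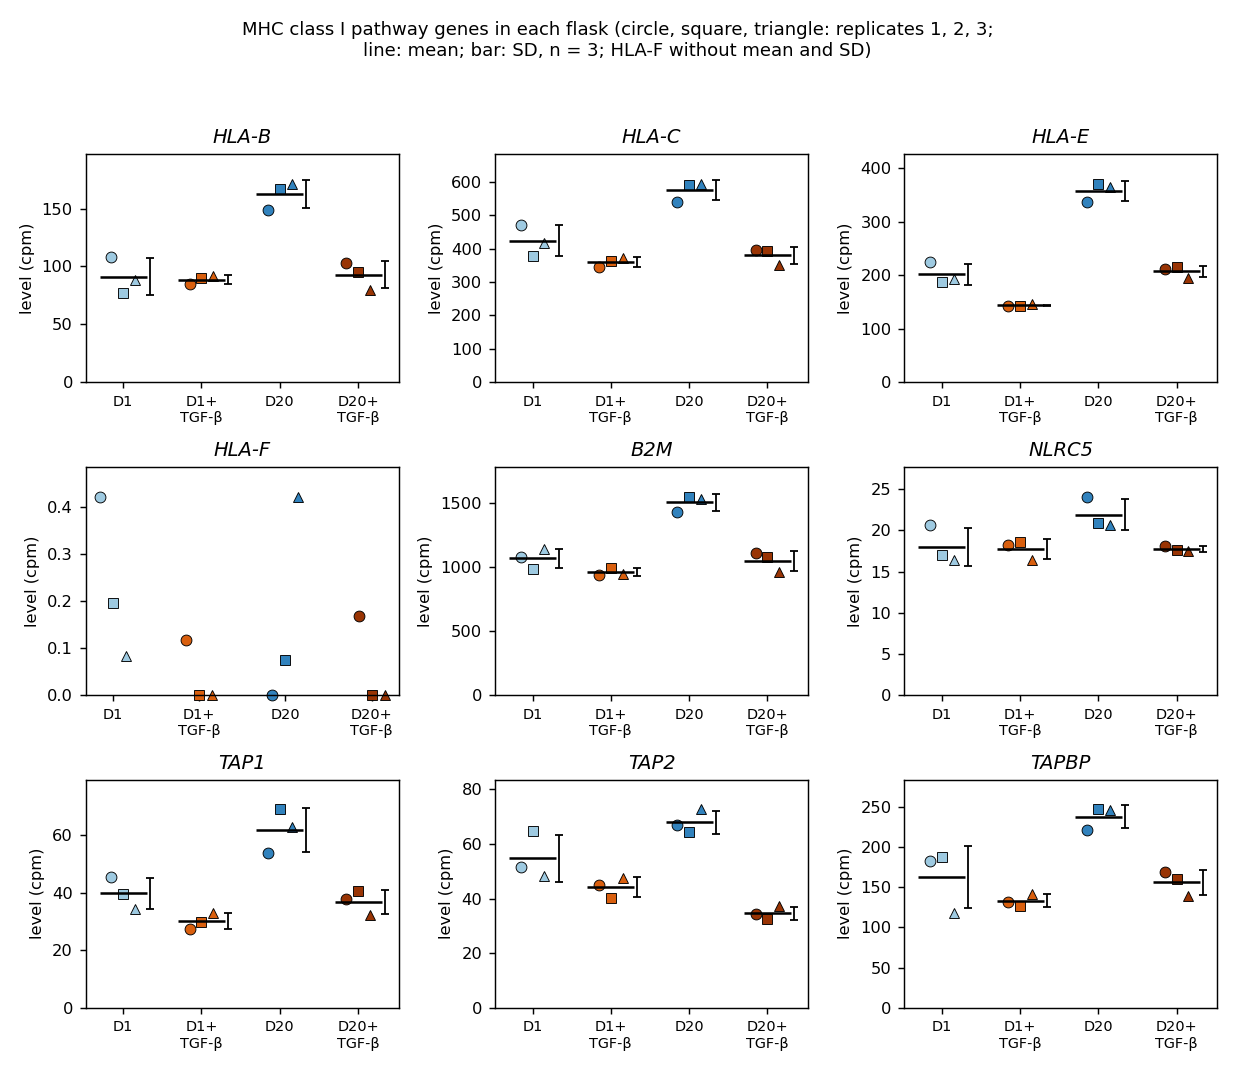
Level in cpm of the 9 genes in each flask, by condition, with a line for the mean and a bar for the SD (n = 3), which are left out for HLA-F. The D20 flasks are the highest for HLA-B, HLA-C, HLA-E, B2M, TAP1, TAPBP and, by a near tie, NLRC5, and HLA-F is at or under 0.422 cpm. Of all genes tested, 29.4% had every D20 flask above every D1 flask. For 29.7% every D20+ TGF-β flask lay below every D20 flask. The share of all genes with the D20 flasks above those of all other conditions was not computed.

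The comparison D1+ TGF-β vs D1 asks what changed within a day of treatment. HLA-E was the one gene of the 8 that was called, falling by 0.49 on the log2 scale (standard error 0.08, by edgeR's quasi-likelihood test, Benjamini-Hochberg adjusted p = 0.000565), from 202 ± 20.1 to 144 ± 1.43 cpm. The threshold for a call was 0.01, and 6.5% of all genes tested were called lower, 13.4% in either direction. The 7 other genes had log2 fold changes from −0.41 for TAP1 (edgeR adjusted p = 0.0302) to −0.01 for NLRC5 (edgeR adjusted p = 0.934). The median of the 8 was −0.26, beside −0.02 over all genes. For HLA-C, HLA-E, TAP1 and TAP2 every treated flask lay below every untreated one, a pattern that 18.8% of all genes tested showed. In bulk RNA, fewer cells expressing a gene and less RNA per cell cannot be told apart. Without D1 replicate 3, TAPBP was also called (log2 fold change −0.47, edgeR adjusted p = 0.00285, lowest 0.00285 and highest 0.408 over 21 alternatives). Without composition factors, the split of all called genes in this comparison was 500 higher and 931 lower, instead of 654 and 617.

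The comparison D20+ TGF-β vs D20 asks about long treatment at equal time in culture. Of the 8 genes, 7 fell and NLRC5 was not called, and 14.7% of all genes tested were called lower here, 27.5% in either direction. TAP2 fell most, by 0.97 on the log2 scale (standard error 0.11, edgeR adjusted p = 1.15e-05), to 0.509 of its D20 level. The heavy chain genes HLA-B and HLA-E followed, with values of −0.81 ± 0.12 (± standard error, edgeR adjusted p = 0.000117) and −0.79 ± 0.08 (edgeR adjusted p = 4.45e-06). TAP1 had a log2 fold change of −0.75 (edgeR adjusted p = 0.000262), HLA-C one of −0.60 (edgeR adjusted p = 0.000115) and B2M one of −0.52 (edgeR adjusted p = 0.000181). TAPBP fell by 0.61 ± 0.14 (edgeR adjusted p = 0.00337), and NLRC5 had a value of −0.30 ± 0.10 (edgeR adjusted p = 0.0331).

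For all 8 genes the 3 treated flasks lay below the 3 untreated ones on day 20, as they did for 29.7% of all genes tested. The median log2 fold change of the 8 was −0.68, beside 0.01 over all genes. Without composition factors, the split of all called genes in this comparison was 1487 higher and 1155 lower, instead of 1210 and 1399. The call of TAPBP was lost without D20 replicate 2 or 3 or D20+ TGF-β replicate 3 (edgeR adjusted p = 0.0152, 0.0147 and 0.0126, lowest 0.000106 and highest 0.0152 over 21 alternatives).

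The comparison D20 vs D1 sets untreated flasks of the 2 days, which also differ in passage, beside each other. HLA-B, HLA-E, TAP1, TAPBP, B2M and HLA-C rose, 6 of the 8, while 18.9% of all genes tested were called higher, 36.4% in either direction. HLA-B rose from 91.3 ± 15.99 to 163 ± 11.9 cpm, or by 0.83 ± 0.12 on the log2 scale (± standard error, edgeR adjusted p = 5.97e-05) and HLA-E by as much, 0.83 ± 0.08 (edgeR adjusted p = 1.90e-06). TAP1 had a log2 fold change of 0.64 (edgeR adjusted p = 0.000596), TAPBP one of 0.55 (edgeR adjusted p = 0.00486), B2M one of 0.50 (edgeR adjusted p = 0.000180) and HLA-C one of 0.44 (edgeR adjusted p = 0.000836). TAP2 and NLRC5 were not called, with values of 0.31 (edgeR adjusted p = 0.0246) and 0.28 (edgeR adjusted p = 0.0371). In 7 of the 8 genes every D20 flask lay above every D1 flask, against 29.4% of all genes tested, with TAP2 the exception. For NLRC5 this rests on a near tie, 20.688 cpm in D20 replicate 3 beside 20.685 cpm in D1 replicate 1.

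Without D1 replicate 2, TAP2 was called in this comparison (edgeR adjusted p = 0.000649, lowest 0.000649 and highest 0.102 over 21 alternatives), and without D1 replicate 1 NLRC5 was (edgeR adjusted p = 0.00592, lowest 0.00592 and highest 0.199). The call of TAPBP was lost without composition factors (edgeR adjusted p = 0.0106), in a fit of the 6 libraries alone (0.0202) and without D20 replicate 2 or 3 (0.0198 and 0.0196), with 0.000618 the lowest value and 0.0202 the highest. Without composition factors, the split of all called genes was 1375 higher and 2133 lower, instead of 1789 and 1668. This comparison and D20+ TGF-β vs D20 share the 3 D20 flasks, so their values are set side by side and are not independent.

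The treated flasks of day 20 and day 1, D20+ TGF-β vs D1+ TGF-β, were compared for what long treatment added to short treatment. HLA-E alone of the 8 was called, rising by 0.53 ± 0.08 on the log2 scale (± standard error, edgeR adjusted p = 0.000124) from 144 ± 1.43 to 207 ± 10.8 cpm, and 17.2% of all genes tested were called higher, 34.8% in either direction. Its flasks did not overlap, as was so for 31.7% of all genes in that direction. TAP2 lay lower in every D20+ TGF-β flask, as did 31.5% of all genes, with a change of −0.34 ± 0.11 on the log2 scale (± standard error, edgeR adjusted p = 0.0187). It was called under 4 of 21 alternatives, among them without D1 replicate 2 (edgeR adjusted p = 0.00335, lowest 0.00335 and highest 0.0711). The other 6 genes lay between −0.01 for NLRC5 (edgeR adjusted p = 0.968) and 0.30 for TAP1 (edgeR adjusted p = 0.0647).

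The difference of the TGF-β responses, D20 minus D1, was called for HLA-B (log2 difference −0.77, standard error 0.17, edgeR adjusted p = 0.00547) and TAP2 (−0.65, standard error 0.15, edgeR adjusted p = 0.00811). Of all genes tested, 5.87% were called with a lower response at D20, 10.4% in either direction. HLA-B had a log2 fold change of −0.04 at D1 (edgeR adjusted p = 0.844), beside −0.81 at D20. The other 6 genes had differences from −0.37 for HLA-C (edgeR adjusted p = 0.0471) to −0.28 for NLRC5 (edgeR adjusted p = 0.193). Both calls were close to the threshold. That of HLA-B was lost on leaving out any of 7 single flasks (edgeR adjusted p from 0.0111 to 0.0185, beside a lowest of 0.000226 over 20 alternatives), namely D1 replicate 3, each D1+ TGF-β replicate, D20 replicates 2 and 3 and D20+ TGF-β replicate 2. That of TAP2 was lost on leaving out any of 10 single flasks, all but D1 replicate 2 and D20+ TGF-β replicate 3 (edgeR adjusted p from 0.0104 to 0.0273, beside a lowest of 0.000343), and without composition factors (0.0220). Without composition factors, the split of all called genes was 761 higher and 381 lower, instead of 428 and 557.

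**Figure D3:**
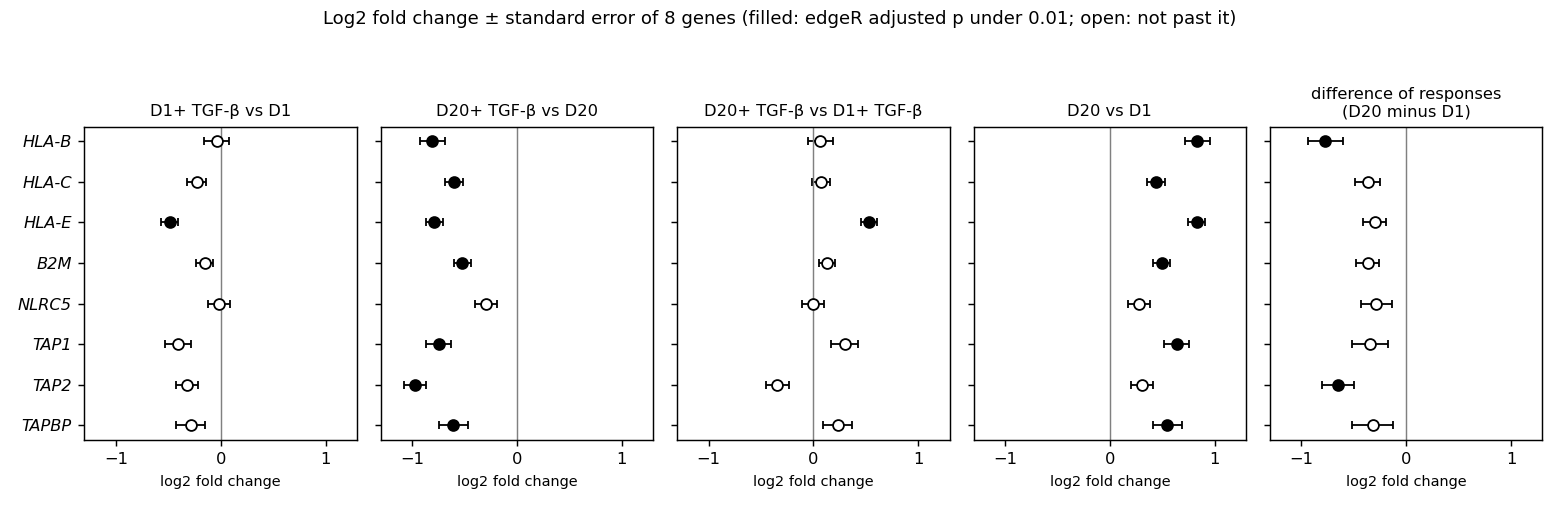
Log2 fold change and standard error of the 8 genes tested in the 4 comparisons and in the difference of TGF-β responses, with filled points for an edgeR adjusted p under 0.01. Of the 8 points, 7 are filled and below 0 in D20+ TGF-β vs D20, and 6 are filled and above 0 in D20 vs D1.

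The summed level of the 4 heavy chain genes takes no account of how reads were split among them. On day 1 it was 716 ± 82.1 cpm untreated and 593 ± 18.8 cpm treated, and on day 20 it was 1095 ± 60.1 cpm untreated and 679 ± 47.8 cpm treated (SD, n = 3). The D20+ TGF-β mean was 0.620 of the D20 mean, and the D20 mean was 1.53 times the D1 mean. The sum is given as a description with no test. With 3 flasks against 3, an exact two-sided permutation test cannot give a p under 0.1.

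The heavy chains were also compared by their share of the summed counts, with no test. HLA-E made up 28.2 ± 0.756% untreated and 24.3 ± 0.612% treated on day 1, and 32.7 ± 0.318% untreated and 30.5 ± 0.723% treated on day 20, without overlap of flasks between any 2 conditions. HLA-C made up 59.1 ± 0.592%, 60.8 ± 0.477%, 52.5 ± 0.141% and 55.9 ± 0.133% in the same order, also without overlap. The share of HLA-B lay between 12.0% and 15.2% in the 12 flasks. The log2 ratio of HLA-E to HLA-C counts was −1.07 ± 0.05, −1.33 ± 0.05, −0.68 ± 0.01 and −0.87 ± 0.03 in that order too. The log2 ratio of HLA-C to B2M counts had condition means from −1.47 ± 0.01 at D20+ TGF-β to −1.34 ± 0.13 at D1.

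**Figure D4:**
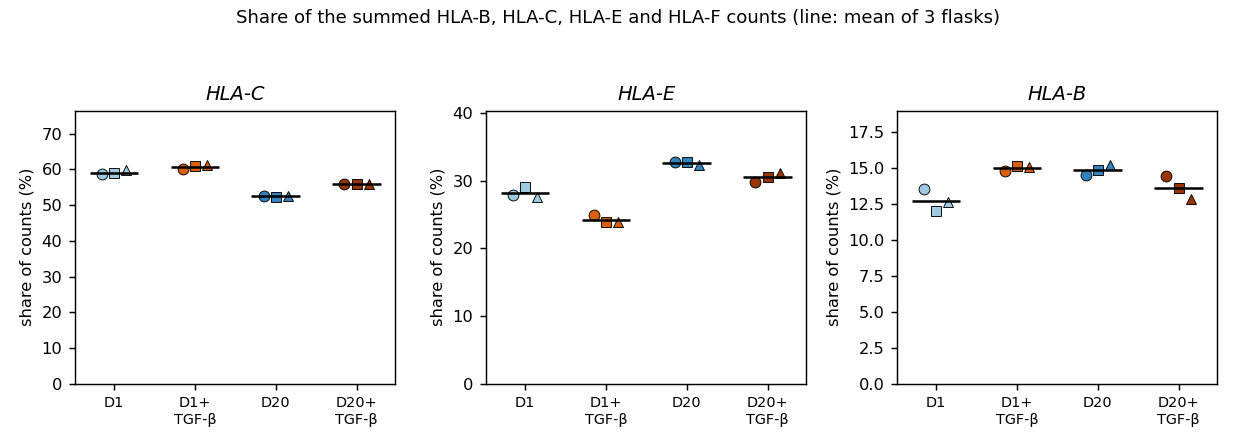
Share in percent of the summed HLA-B, HLA-C, HLA-E and HLA-F counts taken by HLA-C, HLA-E and HLA-B in each flask, by condition, with a line for the mean of 3 flasks. The mean HLA-E share is lowest at D1+ TGF-β, 24.3%, and highest at D20, 32.7%.

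The genes that supply peptides were examined as a list of 14 immunoproteasome subunits, proteasome activators and trimming proteases, of which 12 were tested. In D20+ TGF-β vs D20, 8 of the 12 fell, with a list median of −0.43, where 14.7% of all genes tested were called lower. They include ERAP1, the aminopeptidase that trims peptides in the endoplasmic reticulum (log2 fold change −0.81, edgeR adjusted p = 6.81e-07, from 109 ± 2.05 to 62.3 ± 3.93 cpm), and the cytosolic aminopeptidase NPEPPS (−0.57, edgeR adjusted p = 7.12e-06). The aminopeptidase LNPEP (−0.50, edgeR adjusted p = 0.000363) and PSMB10, a catalytic immunoproteasome subunit (−0.72, edgeR adjusted p = 0.000385), fell with them. At D1+ TGF-β vs D1, where 6.5% of all genes were called lower, 3 of the 12 fell: the immunoproteasome subunit PSMB8 (−0.74, edgeR adjusted p = 2.30e-05), ERAP1 (−0.34, edgeR adjusted p = 0.00225) and the proteasome activator PSME1 (−0.38, edgeR adjusted p = 0.00250).

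In D20 vs D1, 5 of the 12 rose and 2 fell, with a list median of 0.18, while 18.9% of all genes were called higher and 17.6% lower. ERAP1 (log2 fold change 0.66, edgeR adjusted p = 2.45e-06), NPEPPS (0.44, edgeR adjusted p = 4.26e-05) and PSMB10 (0.78, edgeR adjusted p = 0.000146) rose, and THOP1, a peptidase that destroys peptides in the cytosol, fell (−0.89, edgeR adjusted p = 5.35e-06). From short to long treatment 1 rose, PSMB8 (0.56, edgeR adjusted p = 8.48e-05), and 3 fell, THOP1 first (−0.75, edgeR adjusted p = 3.50e-05). Of all genes, 17.2% were called higher and 17.7% lower there, 34.8% in either direction. The difference of responses was called for ERAP1 (−0.47, edgeR adjusted p = 0.00316) and LNPEP (−0.53, edgeR adjusted p = 0.00666), and was lost under 6 and 12 of 20 alternatives (highest adjusted p 0.0151 and 0.0243). PSMB9, the third immunoproteasome subunit, was under the filter at 4.35 ± 0.526, 1.90 ± 0.658, 8.58 ± 0.841 and 2.78 ± 0.841 cpm, in the order day 1 untreated and treated, then day 20 untreated and treated. In the fit without a gene filter PSMB9 was called lower with TGF-β on day 1 (−1.32, edgeR adjusted p = 0.000475) and on day 20 (−1.56, edgeR adjusted p = 2.19e-06).

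Of 8 listed chaperones of peptide loading, 7 were tested, and 3 rose in D1+ TGF-β vs D1, where 6.89% of all genes tested were called higher: HSPA5, the general chaperone BiP (log2 fold change 0.69, edgeR adjusted p = 0.000235), PDIA3, the oxidoreductase of the loading complex (0.38, edgeR adjusted p = 0.00185), and calnexin, CANX (0.35, edgeR adjusted p = 0.00293). In D20+ TGF-β vs D20, HSPA5 (0.95, edgeR adjusted p = 7.93e-06) and PDIA3 (0.37, edgeR adjusted p = 0.00108) rose, where 12.8% of all genes were called higher, with a list median of 0.14. In D20 vs D1, PDIA3 (0.32, edgeR adjusted p = 0.00223) and calreticulin, CALR (0.33, edgeR adjusted p = 0.00295) rose, where 18.9% of all genes were called higher. TAPBPL, a relative of tapasin that edits bound peptides, was under the filter at 6.98 ± 1.78, 4.72 ± 0.264, 11.7 ± 1.57 and 5.80 ± 0.439 cpm, in the order day 1 untreated and treated, then day 20 untreated and treated. In the fit without a gene filter it was called lower in D20+ TGF-β vs D20 (−0.99, edgeR adjusted p = 4.16e-05) and higher in D20 vs D1 (0.68, edgeR adjusted p = 0.00168). The other chaperones serve secretory proteins in general and are not particular to class I molecules.

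Of 18 transcription factors and chromatin regulators of class I genes, 17 were tested. IRF1, an activator that binds IRF motifs, was at 32.3 ± 7.80 cpm untreated and 19.7 ± 1.89 cpm treated on day 1, and at 51.9 ± 2.92 cpm untreated and 23.0 ± 1.82 cpm treated on day 20. It fell with TGF-β on both days (log2 fold change −0.72 at D1, edgeR adjusted p = 0.00274, and −1.17 at D20, edgeR adjusted p = 2.23e-05). IRF2 was the other gene of this list called in D1+ TGF-β vs D1 (−0.56, edgeR adjusted p = 0.00934, lost under 14 of 21 alternatives), and EZH2, a histone methyltransferase that silences genes, was the other one in D20+ TGF-β vs D20 (1.02, edgeR adjusted p = 0.000151). The list median in D20+ TGF-β vs D20 was 0.04, beside −0.68 for the class I genes themselves. Of all genes tested, 13.4% were called in either direction in D1+ TGF-β vs D1 and 27.5% in D20+ TGF-β vs D20.

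In D20 vs D1, where 18.9% of all genes tested were called higher and 17.6% lower, 5 of the 17 rose and EZH2 fell (log2 fold change −1.88, edgeR adjusted p = 3.84e-07). Among those that rose were IRF9 (log2 fold change 0.89, edgeR adjusted p = 3.16e-05) and IRF1 (0.68, edgeR adjusted p = 0.000935), both factors of the interferon response. From short to long treatment 6 rose, among them RFX5, a subunit of the factor with which NLRC5 acts (0.65, edgeR adjusted p = 3.14e-05), IRF9 (0.93, edgeR adjusted p = 5.34e-05) and IRF2 (0.97, edgeR adjusted p = 7.69e-05), and EZH2 fell (−1.12, edgeR adjusted p = 2.53e-05). Of all genes tested, 17.2% were called higher there and 17.7% lower.

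Of 10 interferon receptor and signalling genes, 9 were tested. The feedback inhibitor SOCS3 was the one gene called in each treatment comparison, with log2 fold changes of −1.12 at D1 (edgeR adjusted p = 0.00227) and −1.27 at D20 (edgeR adjusted p = 0.000160). In D20 vs D1, SOCS3 (1.24, edgeR adjusted p = 0.000126) rose with the receptor chains IFNAR1 (0.64, edgeR adjusted p = 0.000364) and IFNGR1 (0.46, edgeR adjusted p = 0.00224). With longer treatment 4 rose: SOCS3, IFNAR1, IFNGR1 and IFNAR2, the last with a value of 0.51 (edgeR adjusted p = 0.00157). Of all genes tested, 17.2% were called higher in that comparison and 18.9% in D20 vs D1. In the treatment comparisons 6.5% were called lower at D1 and 14.7% at D20.

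Other class I-like genes and NKG2D ligands formed a list of 18, of which 6 were tested. MR1, which presents vitamin B metabolites to MAIT cells, was at 14.5 ± 1.73 cpm untreated and 10.03 ± 1.56 cpm treated on day 1, and at 24.5 ± 0.390 cpm untreated and 11.4 ± 0.182 cpm treated on day 20. It fell with TGF-β on both days (log2 fold change −0.52 at D1, edgeR adjusted p = 0.00592, and −1.10 at D20, edgeR adjusted p = 5.48e-06) and rose from D1 to D20 (0.76, edgeR adjusted p = 6.45e-05). HFE, a regulator of iron uptake that pairs with β2-microglobulin, was among the 3 that fell in D20+ TGF-β vs D20 (−0.47, edgeR adjusted p = 0.00215), where 14.7% of all genes tested were called lower. MICA, a stress ligand that does not bind β2-microglobulin, was the one that fell in D20 vs D1 (−0.21, edgeR adjusted p = 0.00993), a call lost under 15 of 21 alternatives, as that of MR1 at D1 was under 8. With longer treatment FCGRT, the neonatal Fc receptor chain, was the one called (0.58, edgeR adjusted p = 0.00238), where 17.2% of all genes were called higher. In D20 vs D1, 18.9% of all genes were called higher and 17.6% lower, and in D1+ TGF-β vs D1 6.5% were called lower.

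Of 10 genes of export and turnover, 9 were tested. SEL1L, an adaptor of endoplasmic reticulum degradation, rose in D1+ TGF-β vs D1 (log2 fold change 0.42, edgeR adjusted p = 0.00141). Its ligase partner SYVN1 rose in D20+ TGF-β vs D20 (0.74, edgeR adjusted p = 3.56e-05), where the export receptor BCAP31 fell (−0.36, edgeR adjusted p = 0.00170). In D20 vs D1, SEL1L (0.55, edgeR adjusted p = 4.67e-05) and the ligase TMEM129 (0.62, edgeR adjusted p = 0.000499) rose and VCP fell (−0.25, edgeR adjusted p = 0.00581, lost under 9 of 21 alternatives). Of all genes tested, 13.4% were called in either direction in D1+ TGF-β vs D1 and 27.5% in D20+ TGF-β vs D20. In D20 vs D1 it was 36.4%. From short to long treatment 2 rose and 4 fell, where 17.2% of all genes were called higher and 17.7% lower. Of those that fell, MARCH4 came first, a ligase that can remove class I molecules from the surface (−0.84, edgeR adjusted p = 0.000348).

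**Figure D5:**
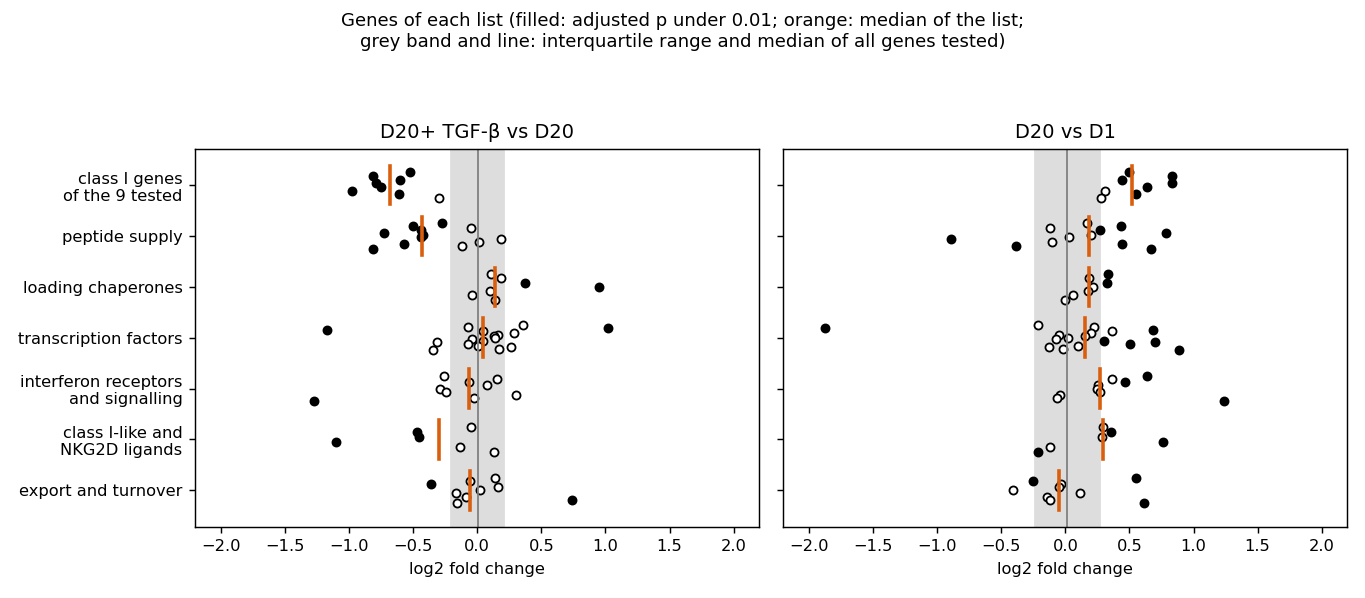
Log2 fold changes of the tested genes of each list in D20+ TGF-β vs D20 and D20 vs D1, filled where the edgeR adjusted p was under 0.01, with the list median in orange and the interquartile range of all genes tested in grey. The class I genes have medians of −0.68 and 0.52, the peptide supply genes −0.43 and 0.18, and the loading chaperones 0.14 and 0.18.

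MHC class II genes, a check on antigen presentation by the other route, were all under the filter. HLA-DRA had no count in any of the 12 libraries, and the transactivator CIITA was at or under 0.335 cpm. The highest of the 11 was HLA-DMA, a peptide exchange factor, with 4.14 ± 0.685 and 2.03 ± 0.788 cpm on day 1 and 9.52 ± 2.01 and 2.60 ± 0.674 cpm on day 20, untreated and treated. In the fit without a gene filter HLA-DMA was called lower with TGF-β on both days (log2 fold change −1.07 at D1, edgeR adjusted p = 0.00440, and −1.82 at D20, edgeR adjusted p = 3.13e-07).

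Other measures moved with the class I genes. The summed level of 8 proliferation genes was 752 to 1193 cpm untreated and 827 to 926 cpm treated on day 1, and 125 to 155 cpm untreated and 286 to 478 cpm treated on day 20. All 8 fell in D20 vs D1 and rose in D20+ TGF-β vs D20, opposite to the class I genes, and the part of cell division in these changes was not tested. In D20+ TGF-β vs D20, 12.8% of all genes tested were called higher and 14.7% lower. In D20 vs D1, 18.9% of all genes tested were called higher and 17.6% lower. Of the 10 fibroblast markers, 8 rose there, among them DCN (log2 fold change 1.86, edgeR adjusted p = 6.46e-07), LUM (2.44, edgeR adjusted p = 1.18e-05) and PDGFRA (1.26, edgeR adjusted p = 2.15e-06), the same direction as the class I genes. In D20+ TGF-β vs D20 the 3 that fell moved with the class I genes and COL1A1 did not, and the part of these markers in the result was not tested. The 10 leukocyte markers summed to 0.338 to 0.914 cpm untreated and 0.465 to 0.780 cpm treated on day 1, and to 5.81 to 6.25 cpm untreated and 0.282 to 1.01 cpm treated on day 20. Nearly all of the D20 value was CD14 (5.78 ± 0.429 cpm), while the pan-leukocyte gene PTPRC was at or under 0.191 cpm and at 0 in 7 of 12 libraries. The 5 endothelial markers summed to at most 2.70 cpm. The 5 epithelial markers summed to 9.14 to 26.8 cpm and 11.7 to 14.2 cpm on day 1, and to 9.53 to 13.6 cpm and 5.06 to 14.1 cpm on day 20, untreated and treated, mostly KRT19.

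The genes whose log2 levels followed those of 3 class I genes most closely over the 12 libraries were picked by Pearson's r, as a description. For B2M they were ANO4 (r = 0.985), GDE1 (0.981), SNAP29 (0.979), SDK1 (0.977) and REEP5 (0.977). For HLA-B they were ANO4 (0.971), PALM (0.970), MAMLD1 (0.967), APLP2 (0.966) and PIGS (0.965), and for TAP1 they were RAB11FIP3 (0.979), TNFRSF1A (0.978), APLP2 (0.977), LAMA5 (0.977) and PLXND1 (0.977). ANO4, of the anoctamin family of membrane proteins, had means of 101 and 82.8 cpm on day 1 and of 233 and 95.4 cpm on day 20, untreated and treated. TNFRSF1A, the main TNF receptor, had means of 151, 115, 213 and 132 cpm in the same order. The points share the 4 conditions and the depth of their libraries, so these values describe the common pattern with its highest level at D20.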

How the data were processed

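RNA was sequenced from WI-38 cells in 4 conditions of 3 flasks, by the authors, from directional libraries of total RNA read in paired ends. Before deposition the authors ran Trimmomatic on the reads and aligned these to hg19 by Rsubread. One deposited table holds the counts of 25702 genes in each lane, not normalized. The authors also deposited log2 cpm per gene and lane, as voom gives them, for 9412 genes. The counting program, its annotation and its use of strand are not given in the sources used here.

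The 4 lanes of each library were summed to 12 libraries of 8674488 to 18286197 counts. Their low and high normalization factors by TMM were 0.969 and 1.04. Genes at 10 cpm or more in 6 or more libraries were tested, with edgeR 4.0.16 in R 4.3.3: the quasi-likelihood model took the 12 libraries together, with a mean for each condition, Benjamini-Hochberg adjustment over 9490 genes, and a threshold of 0.01. The standard error of a log2 fold change is its size over the root of the F statistic. On simulated data, 97% to 99% of genes changed by 1 on the log2 scale were recovered among 9490 genes in the 4 comparisons. For the difference of responses 84% were recovered. Changes under 1 on that scale, the size of all changes of the class I genes here, were not simulated. Errors between flasks include counting error.

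The members and the lists were chosen with earlier results of these data known. Named in the text were the 9 members in every comparison, up to 4 called genes with the smallest p per other list and comparison, the 5 genes most like B2M, HLA-B and TAP1, and genes overlapping a member. Of the genes meeting this rule, 2 are not reported here, and some called more than once are given in part. Marker lists served as checks of the cells. Gene positions and canonical transcript lengths are from GENCODE on GRCh37, and promoters from RefSeq on GRCh38.p14. Alternatives were DESeq2 1.42.0, limma 3.58.1 on counts (voom) and on the deposited log2 values, other scalings and filters, fits of only 6 libraries, a replicate block, a looser threshold and each flask left out.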

Additional observations from a re-analysis of the deposited data

Results flagged for a closer look

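Among the class I genes and the lists of their pathway, 4 genes had a TGF-β response that differed between day 20 and day 1 by the test of the difference itself. The log2 difference, D20 minus D1, was −0.77 for HLA-B (edgeR adjusted p = 0.00547) and −0.65 for TAP2 (edgeR adjusted p = 0.00811). It was −0.47 for ERAP1 (edgeR adjusted p = 0.00316) and −0.53 for LNPEP (edgeR adjusted p = 0.00666). In all 4 the response was lower at D20. They are 5.88% of the 68 genes of these lists tested, near the 5.87% of all genes called lower in this way, so the count itself is no result about the lists. Each of the 4 calls was lost under at least 6 of 20 alternatives. Conditions of 3 flasks are too small for a gene-by-gene test of outlying samples.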

How the results depend on the processing

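Of 40 log2 fold changes of the 8 genes, 17 were called, and 13 of the 17 kept their call and direction under every alternative run. The 4 others were TAPBP in D20+ TGF-β vs D20 and in D20 vs D1, and the differences of responses of HLA-B and TAP2. No called value changed sign.

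The members called in D20+ TGF-β vs D20 numbered 7, and 6 to 7 with 1 flask left out, and those in D20 vs D1 numbered 6, and 5 to 7 with 1 flask left out. In D1+ TGF-β vs D1 the count of 1 became 3 at a threshold of 0.05, and was 1 to 2 with 1 flask left out. Of all 9490 genes, 1131 were called higher and 1204 lower there at 0.05, instead of 654 and 617. From short to long treatment (D20+ TGF-β vs D1+ TGF-β) the count of 1 became 2 at a threshold of 0.05, without a gene filter, with edgeR's own filter and in a fit of only the 6 libraries, and was 1 to 2 with 1 flask left out. Of all 9490 genes, 2381 were called higher and 2353 lower there at 0.05, instead of 1630 and 1677. In the difference of responses, 984 of the 9490 genes were called higher and 1056 lower at 0.05, instead of 428 and 557. There the count of 2 members became 4 at that threshold, 1 without composition factors, and 0 to 2 with 1 flask left out. With the replicate number as a block it became 1, as the call of TAP2 was lost (edgeR adjusted p = 0.0158, in a range of 0.000343 to 0.0273), and the block changed no other call. Same-numbered flasks of different conditions correlated at −0.22 to 0.32, and differently numbered ones at −0.36 to 0.24. These ranges overlap, so they do not settle whether the numbers pair the flasks. Leaving out the composition factors moved the median of all genes in the difference of responses from 0.02 to 0.12.

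Values near 0 changed sign. NLRC5 in D1+ TGF-β vs D1 became 0.0024 by limma from the deposited values and 0.0011 in the fit of 6 libraries, and ran from −0.0756 to 0.0921 with 1 flask left out. From short to long treatment NLRC5 became 0.0081 by limma from the deposited values and 0.0271 without composition factors, and ran from −0.0553 to 0.0348 with 1 flask left out. HLA-B ran from −0.141 to 0.104 in D1+ TGF-β vs D1 and from −0.0227 to 0.160 from short to long treatment. The log2 ratio of the heavy chain sum, −0.69 in D20+ TGF-β vs D20 and 0.61 in D20 vs D1, stayed within −0.73 to −0.63 and 0.54 to 0.71 with 1 flask left out, chosen after seeing the data, and moved by less than the spread between flasks under the other alternatives. Of 832 counts of the other lists under the alternatives, also chosen after seeing the data, 720 stayed within 1.5 times the count given. Of 66 calls of single list genes, 38 were kept under every alternative, 28 were lost under at least 1 and 0 changed sign. IRF2 in D1+ TGF-β vs D1 reached an edgeR adjusted p of 0.0672, MICA in D20 vs D1 one of 0.0391 and MR1 in D1+ TGF-β vs D1 one of 0.0379. Depth limits HLA-F, while PSMB9, TAPBPL and HLA-DMA were left out by the minimum of 10 cpm and were counted in every library.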
